A study of Mus musculus and Homo sapiens with 10 samples.

Results

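The regions described here are H3K122ac islands of mouse embryonic stem cells (mESC) that carried H3K27ac and had no H3K64ac call. An island is a stretch of neighbouring windows enriched over background, as called by the authors. From the 92957 islands of the H3K122ac list, those shorter than 10000 bp were taken (91091), and 10289 of them met an H3K27ac island by at least 1 bp and no H3K64ac island. They were chosen by the calls in the 3 lists, so their H3K122ac, H3K27ac and H3K64ac values are descriptions and carry no test. The cells were undifferentiated 46c mESC, which carry a Sox1-GFP reporter, at passages 25 to 28 and grown without feeders in serum with Lif. Native chromatin was cut with micrococcal nuclease and precipitated with antibodies to H3K122ac, H3K64ac or H3K27ac, with 2 libraries each and no treatment. The 2 libraries of a mark were merged before calling, so each mark had 1 list, the spread between cultures cannot be given, and intervals cover counting error only. Cell line K562 was mapped in the same series and is not analysed here.

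Most histone acetylation that is mapped lies on the flexible tails. Lysine 27 of the H3 tail is acetylated by CBP-family enzymes at active promoters and enhancers, and this mark is widely used to tell active from poised enhancers. The residues K64 and K122 lie in the globular domain, the folded core around which DNA is wound. The second of these is near the dyad, the centre of the wrapped DNA, where contacts between histone and DNA are strong, and acetylation of either residue is known to loosen the nucleosome. Embryonic stem cells are a common system for these marks because many of their enhancers have been catalogued. The question put to the series was whether acetylation of the globular domain finds regulatory regions that tail acetylation does not. The islands here are those in which the tail mark and one of the globular-domain marks were called without the other.

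These islands made up 11.3% of the H3K122ac islands under 10000 bp (Wilson 95% interval 11.1 to 11.5%), which is the share the rule itself selects. They were 20.6% (20.3 to 21.0%) of the 49865 such islands with H3K27ac, and 28.1% (27.6 to 28.5%) of the 36637 without H3K64ac. The islands with all 3 acetylations numbered 39576, those with H3K64ac but no H3K27ac 14878, and those with neither other mark 26348. Because the 10289 islands were short, they covered 14.2 Mb, or 6.78% of the length of all H3K122ac islands under 10000 bp. They held 4.47% of the H3K122ac reads. Islands with all 3 marks held 67.5% of the reads over 59.9% of the length.

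Short length was the plainest property of the set. The shortest island was 200 bp, a single window, the median 1200 bp and the longest 8800 bp, with 5% of the islands at 400 bp or less and 5% at 3200 bp or more. The median was 2600 bp with all 3 marks, 2000 bp with H3K64ac and no H3K27ac, and 1000 bp with neither. The share of islands with this combination of marks fell steadily with length. At 200 to 600 bp it was 20.24% of all H3K122ac islands, at 800 to 1000 bp 19.7%, at 1200 to 1600 bp 14.5%, at 1800 to 2800 bp 8.27%, and at 3000 to 9800 bp 2.86%. Among islands with H3K27ac the fall was steeper, from 71.3% without H3K64ac at 200 to 600 bp to 3.74% at 3000 to 9800 bp. The share of islands with neither other mark fell as well, from 64.9% to 6.49% of all H3K122ac islands in these 2 ranges. A fall with length was thus not particular to the set. A longer island has more bases in which to meet another list, and the part of this in these falls was not tested.

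**Figure D1:**
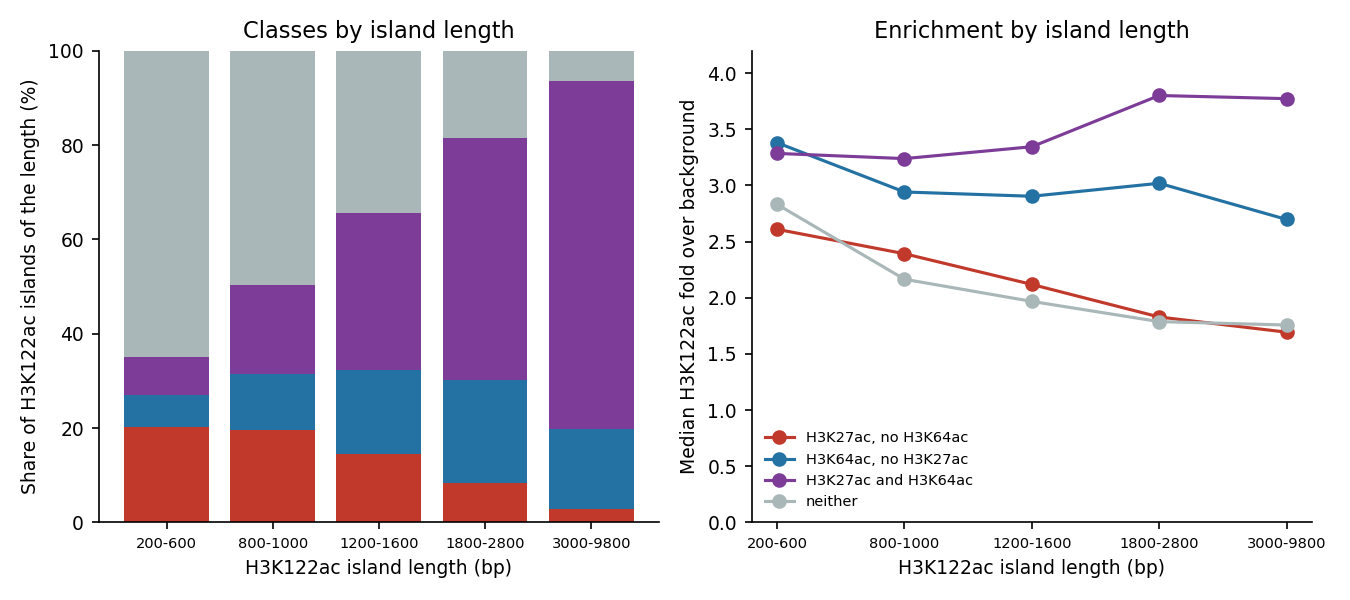
Left, the share of mESC H3K122ac islands under 10000 bp in each class of other marks (y, percent) by island length (x, bp). Right, the median H3K122ac fold over background (y) in the same length ranges. Islands with H3K27ac and no H3K64ac (red) fell from 20.24% of the shortest islands to 2.86% of the longest, and their median fold fell from 2.61 to 1.69, while that of islands with all 3 marks (purple) stayed between 3.24 and 3.80. The share of islands with neither other mark (grey) also fell, from 64.9% to 6.49%.

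Enrichment of H3K122ac was modest. The fold is the authors' ratio of H3K122ac to background reads, scaled by the ratio of the libraries. It ranged from 1.13 to 197 over the 10289 islands, with a median of 2.21 (95% interval of the median 2.19 to 2.23), and 5% of them lay at or above 5.21. The median was 3.67 in islands with all 3 marks, 2.87 with H3K64ac and no H3K27ac, and 2.10 with neither. The medians of the set and of islands with neither mark were near each other, but their upper ends were not, with 95th percentiles of 5.21 and 10.9. Background differed at its low end, with 5th percentiles of 31.0 reads per kb in the set and 16.7 with neither mark. Its part in the upper ends of the folds was not tested. A fold of 3 or more was reached by 2572 of the 10289 (25.0%), against 45.7% of all H3K122ac islands under 10000 bp, and a fold under 1.5 by 1423 (13.8%), against 9.38%. A q-value of at most 1e-10 was reached by 6658 (64.7%), against 80.0%. The rule used these calls, so nothing is read from the differences.

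Fold and length ran in opposite directions in this set. Median H3K122ac folds were 2.61, 2.39, 2.12, 1.83 and 1.69 from the shortest to the longest of the 5 length ranges. In islands with all 3 marks they were 3.29, 3.24, 3.35, 3.80 and 3.77. At 200 to 600 bp the medians were thus 2.61 and 3.29, and at 3000 to 9800 bp 1.69 and 3.77. In islands with neither other mark the medians fell much as in the set, at 2.83, 2.17, 1.97, 1.79 and 1.76. With H3K64ac and no H3K27ac the medians were 3.38, 2.94, 2.90, 3.02 and 2.70, also lower in the longest range than in the shortest. A lower fold in the longest islands was thus not particular to islands without H3K64ac. Only with all 3 marks was the median higher in the 2 longest ranges than in the 3 shorter ones. In the 10250 islands with at least 10 background reads, Spearman's rho of fold with length was -0.35, as a description of islands that share their libraries.

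The background library was the same for the lists compared here: all 4091 islands with identical ends in the H3K122ac and H3K27ac lists had identical background counts. Background density was a median of 60.0 reads per kb in these islands, 57.5 with all 3 marks, 67.0 with H3K64ac and no H3K27ac, and 68.3 with neither mark. Over all lengths, the set therefore lay nearer to the other islands with H3K27ac than to islands lacking it. This did not hold in every length range. At 200 to 600 bp the medians were 63.3 in the set, 61.7 with all 3 marks, 58.3 with H3K64ac and no H3K27ac, and 61.7 with neither. At 3000 to 9800 bp they were 66.3, 58.9, 69.4 and 73.2 in the same order. Below the median density of all H3K122ac islands under 10000 bp, 61.8 reads per kb, there were 5540 islands of the set with a median H3K122ac fold of 2.60. At or above it there were 4749 with a median of 1.86. The matching medians were 4.30 and 2.93 for all 3 marks, and 3.29 and 1.79 for neither other mark. Islands with all 3 marks had the highest of these medians on both sides, and folds of these classes were higher where background was low.

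Whether H3K64ac was absent or only uncalled cannot be read from the lists, since they give no H3K64ac reads outside H3K64ac islands. The folds at which H3K64ac islands were called give a scale. Among H3K64ac islands of 200 to 600 bp the lowest fold was 1.30, the 5th percentile 1.51 and the median 2.90. At 3000 to 9800 bp these were 1.09, 1.26 and 2.58. Of the 10289 islands, 9862 (95.8%) had an H3K122ac fold at or above the 5th percentile of H3K64ac folds in their length range, and 4431 (43.1%) were at or above the median. Both lists were called with the same window, gap and false discovery rate, so similar folds in them are partly set by the calling. The matching shares for all H3K122ac islands are not given here. These shares therefore do not tell absent from uncalled H3K64ac. Of the 57512 H3K64ac islands, 1511 were 600 bp or shorter, against 2184 of the 10289. The 5th and 25th percentiles of length were 400 and 800 bp in the set. In all H3K122ac islands under 10000 bp they were 600 and 1000 bp. The rule kept islands that met no H3K64ac, and the lists are of different marks. These lengths therefore do not tell absent from uncalled H3K64ac either. When H3K64ac islands under a fold of 2 were not counted as present, the set grew to 20095 islands.

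H3K27ac in these islands was near the middle of its own list and lower than in islands with all 3 marks. The highest H3K27ac fold met by an island ranged from 1.06 to 115, with a median of 1.45 (1.44 to 1.45), and was 1.61 in islands with all 3 marks. A fold of 2 or more was met in 1538 (14.9%), against 23.8% of all H3K122ac islands with H3K27ac. By length, the medians ran from 1.56 at 200 to 600 bp to 1.32 at 3000 to 9800 bp. With all 3 marks they were 1.73 and 1.62 in these 2 ranges. The whole H3K27ac list, with each H3K27ac island counted once, had a median fold of 1.49 and a lowest fold of 1.05. Counted likewise, the H3K27ac islands met by the set had a median fold of 1.44. The H3K27ac library was deeper relative to background than the other ones: the scaling ratio was 2.19 for H3K27ac, 0.913 for H3K122ac and 1.08 for H3K64ac.

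The tail mark usually lay over most of the H3K122ac island. At least 50% of the length was covered by H3K27ac in 8231 islands (80.0%), against 73.9% of all H3K122ac islands with H3K27ac, and 4976 (48.4%) were covered wholly, against 27.8%. The median coverage was 87.5%. The set was shorter than islands with all 3 marks, at a median of 1200 against 2600 bp, and a shorter island has fewer bases to cover. The part of length in these shares was not tested. Nearly all, 9766, met a single H3K27ac island, 504 met 2, 17 met 3 and 2 met 4. Of the 9766, the H3K27ac island reached past both or one end while covering the whole H3K122ac island in 3259, lay inside it in 3113, crossed one end in 1677, and had the same ends in 1717. No single arrangement dominated, and the extents of the 2 marks were called with different gap settings.

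The H3K27ac islands met by the set numbered 10783, 1000 bp long in the median and with a fold of 1.44. Few of them joined the set to H3K64ac: 219 (2.03%) also met an H3K64ac island outside the H3K122ac island. The 221 H3K122ac islands on these had a median fold of 1.61 and lay a median of 1200 bp from H3K64ac. The other 10068 had a median fold of 2.23 and lay a median of 10400 bp away. These H3K27ac islands were chosen through H3K122ac islands without H3K64ac, so a low share is partly fixed by the rule. In the whole H3K27ac list, 55267 islands (45.3%) met both H3K122ac and H3K64ac, and 5974 (4.89%) met H3K64ac alone. Over the whole H3K27ac list, 11923 of 122097 islands (9.77%) met H3K122ac and no H3K64ac. Their median was 199 H3K27ac reads per kb, against 218 with both other marks and 186 with neither. Background was 61.5, 63.2 and 58.0 reads per kb in the same order. Median H3K27ac folds were 1.45, 1.58 and 1.44, so over background these islands were near those with neither mark.

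Islands with the same ends in both lists allow the marks to be set side by side over the same bases and the same background count. There were 1717 of these in the set (16.7%, against 8.20% of all H3K122ac islands with H3K27ac), with a median length of 800 bp. The part of short length in the higher share was not tested. Medians of the 1717 were 138 H3K122ac, 213 H3K27ac and 60.0 background reads per kb. With the library ratios, median folds were 2.52 for H3K122ac and 1.58 for H3K27ac. The H3K122ac fold was the higher in 1673 of the 1717 (97.4%), and in 97.8% of the same-ended islands with all 3 marks. The whole lists differed in the same direction, with median folds of 2.83 for H3K122ac and 1.49 for H3K27ac. This direction was therefore not particular to the set. In the set, the median ratio of the H3K122ac to the H3K27ac fold was 1.52. Of its islands, 90% lay between the 5th percentile, 1.06, and the 95th, 2.71. In the 2371 same-ended islands with all 3 marks this ratio had a median of 1.99. Median H3K27ac folds of the 2 classes were 1.58 and 1.64, and median H3K122ac folds 2.52 and 3.47. The islands of the set were shorter, at a median of 800 against 1400 bp, and by length their median H3K27ac fold was below that with all 3 marks in each of the 5 ranges, for example 1.72 and 1.85 at 200 to 600 bp and 1.43 and 1.64 at 1200 to 1600 bp. The ratio does not depend on the background count, as it cancels. At 1200 to 1600 bp it was 1.37 in 263 islands of the set and 1.93 in 703 with all 3 marks. At 200 to 600 bp it was 1.57 in 776 and 1.91 in 265. Across the 1696 such islands of the set with at least 10 background reads, H3K122ac and H3K27ac reads per kb had a Spearman's rho of 0.49. These points share background, so this is a description only.

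**Figure D2:**
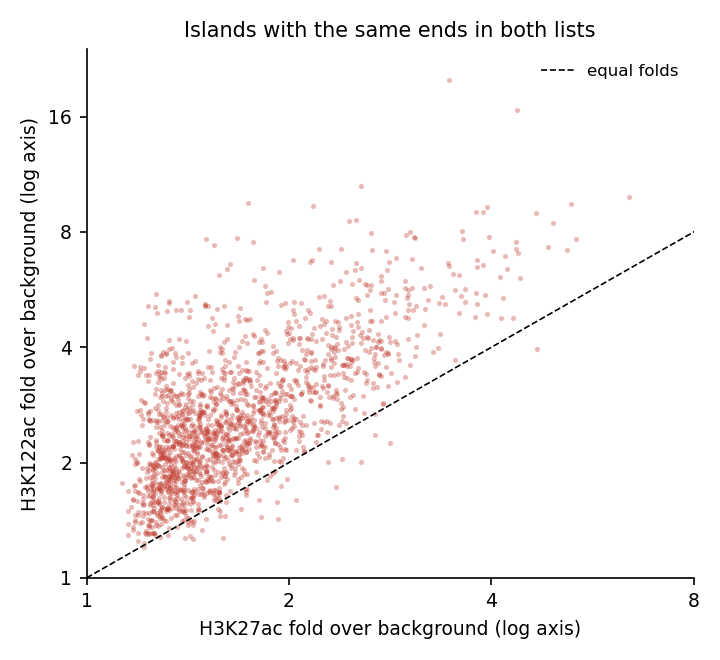
Each point is 1 of the 1696 islands of the set with the same ends in the H3K122ac and H3K27ac lists and at least 10 background reads, with its H3K27ac fold (x) and H3K122ac fold (y), both on log axes. Most points lie above the dashed line of equal folds, with median folds of 2.52 (H3K122ac) and 1.58 (H3K27ac) over all 1717 such islands. The H3K122ac fold was also the higher in 97.8% of the 2371 same-ended islands with all 3 marks, not plotted.

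Single islands were named by rank among the 7025 with at least 100 H3K122ac reads and 10 background reads, on the numbered chromosomes other than 18 and on X, with positions in mm9. All intervals below are exact 95% counting intervals of a fold. The highest H3K122ac fold was at chr3:7310401-7311400, with 316 H3K122ac reads over 11 background reads, a fold of 31.5 (17.3 to 63.7). Its H3K27ac island spanned 200 bp with 66 reads over 2 background reads, a fold of 15.1 (4.02 to 127), which was also the highest H3K27ac fold among the 7025. Next came chr2:123616201-123616800, with 207 reads over 11 and a fold of 20.6 (11.3 to 41.9). The intervals of the 2 islands overlap, so their order is not resolved. Next were chr4:7464801-7465400, with 255 reads over 14 and a fold of 19.9 (11.7 to 37.0), and chr19:15382201-15383000, with 220 over 13 and 18.5 (10.6 to 35.4). Each of the 4 lay far from H3K64ac, at 31200, 210400, 184200 and 148000 bp. All 4 rest on few background reads, at 11.0 to 23.3 per kb against the median of 60.0.

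With at least 50 background reads, a limit chosen after these values were seen, other islands led. The highest was chr1:34986201-34987600, with 470 H3K122ac reads over 53 background reads and a fold of 9.71 (7.30 to 13.2). Its H3K27ac fold was 1.78 (1.26 to 2.56). It was followed by chr15:63420801-63422000, with 478 reads over 56, a fold of 9.35 (7.08 to 12.6) and an H3K27ac fold of 2.17 (1.62 to 2.95). These 2 islands had high H3K122ac folds at 37.9 and 46.7 background reads per kb, with H3K27ac folds above the median of the set, 1.45, and their nearest H3K64ac islands lay 26400 and 70000 bp away. The other two were chr7:97256001-97256800 at 7.73 (5.74 to 10.6) and chrX:100531201-100533200 at 7.15 (5.45 to 9.52).

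By H3K27ac fold, the leading island after that on chromosome 3 was chr17:55282201-55283800, at 8.85 (2.88 to 44.1) from 58 reads over 3 background reads in an H3K27ac island of 200 bp. Its H3K122ac fold was 8.06 (5.75 to 11.6). At chr17:59707401-59708200 the H3K27ac fold was 8.54 (2.78 to 42.7) and at chr1:17913001-17916000 it was 7.47 (3.31 to 20.9). The intervals of all 4 leading H3K27ac folds overlap. Each came from an H3K27ac island of 200 or 600 bp, and H3K27ac covered at most 37.5% of the H3K122ac island.

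Among islands with the same ends in both lists, chr4:7464801-7465400 also led, with 255 H3K122ac, 106 H3K27ac and 14 background reads over 600 bp. The ratio of its H3K122ac to its H3K27ac fold was 5.76 (4.57 to 7.29), an interval that does not involve the background count. The island chr3:29366601-29367200 had 198, 124 and 13 reads and a ratio of 3.82 (3.04 to 4.82). The next, chr15:38069601-38070200, had 193, 112 and 20 reads and a ratio of 4.12 (3.25 to 5.25). In the last, chr7:115686001-115686400, 209, 91 and 24 reads gave a ratio of 5.50 (4.28 to 7.11). In all 4 the lower bound exceeded the median ratio of same-ended islands, 1.52. They were ranked on H3K122ac fold, so a high ratio is part of their choice.

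The weakest islands by this ranking lay close to background. The lowest H3K122ac fold was at chr13:73877201-73883000, with 447 reads over 433 background reads and a fold of 1.13 (0.988 to 1.29). Its H3K27ac fold was 1.14 (1.02 to 1.27). At chr12:103889801-103895400 the H3K122ac fold was 1.14 (1.00 to 1.29), at chr15:82770401-82774400 1.14 (0.979 to 1.33), and at chr12:77338001-77342000 1.14 (0.983 to 1.33). All these intervals except that of chr12:103889801-103895400 reach below a fold of 1, so at this depth enrichment was not resolved from the counts alone. They were long, at 4000 to 5800 bp.

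The longest islands of the set also held modest enrichment. The island chr17:35241001-35249800 spanned 8800 bp with 1191 H3K122ac reads over 643 and a fold of 2.03 (1.84 to 2.24), but H3K27ac covered only 1400 bp of it, at a fold of 1.19 (0.963 to 1.47). At chr11:11860801-11869400, of 8600 bp, the H3K122ac fold was 2.58 (2.36 to 2.83) from 1659 reads, the highest read count of the set, and the 2 H3K27ac islands covered 3200 bp. In these 2 islands H3K122ac was well resolved and H3K27ac was a small, weak part. The other 2, chr6:30300201-30308000 and chr3:148892401-148900200, both spanned 7800 bp. Their H3K122ac folds were 1.37 (1.22 to 1.53) and 1.97 (1.72 to 2.26), and H3K27ac covered 64.1% and 71.8% of them.

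Distance to H3K64ac was short for some islands and long for others. The nearest H3K64ac island was a median of 10000 bp away (9600 to 10400 bp), with a 5th percentile of 1000 bp and a 95th of 109840 bp. By range, 603 islands lay 0 to 1000 bp from H3K64ac, 2760 at 1200 to 5000 bp, 3592 at 5200 to 20000 bp, 2733 at over 20000 and up to 100000 bp and 601 farther. The distances were much the same as those of H3K122ac islands with neither other mark, whose median was 10400 bp. Median H3K122ac fold of the set rose over these ranges, at 1.88, 2.06, 2.19, 2.39 and 2.75. In islands with neither other mark it rose too, at 1.87, 1.94, 1.99, 2.42 and 4.79, so a rise was not particular to the set. Their median background was 70.6 reads per kb in the nearest range and 31.7 in the farthest. In the set, median length fell from 1400 to 800 bp, and median background from 60.8 to 47.9 reads per kb. At or above the median background density of all islands, the fold of the set was 1.77 within 5000 bp, 1.90 at 5200 to 20000 bp and 1.98 beyond. Background was 73.8, 73.8 and 72.4 reads per kb, and median length 1200, 1000 and 1000 bp. Below that density the folds in the same ranges were 2.41, 2.57 and 2.80. There, background was 51.0, 49.1 and 47.0 reads per kb, and median length 1400, 1200 and 1000 bp. Background and length both moved with distance, and their part in the rise was not tested. The rank correlation of fold and distance was weak, at 0.19 over 10250 islands, and is no finding.

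**Figure D3:**
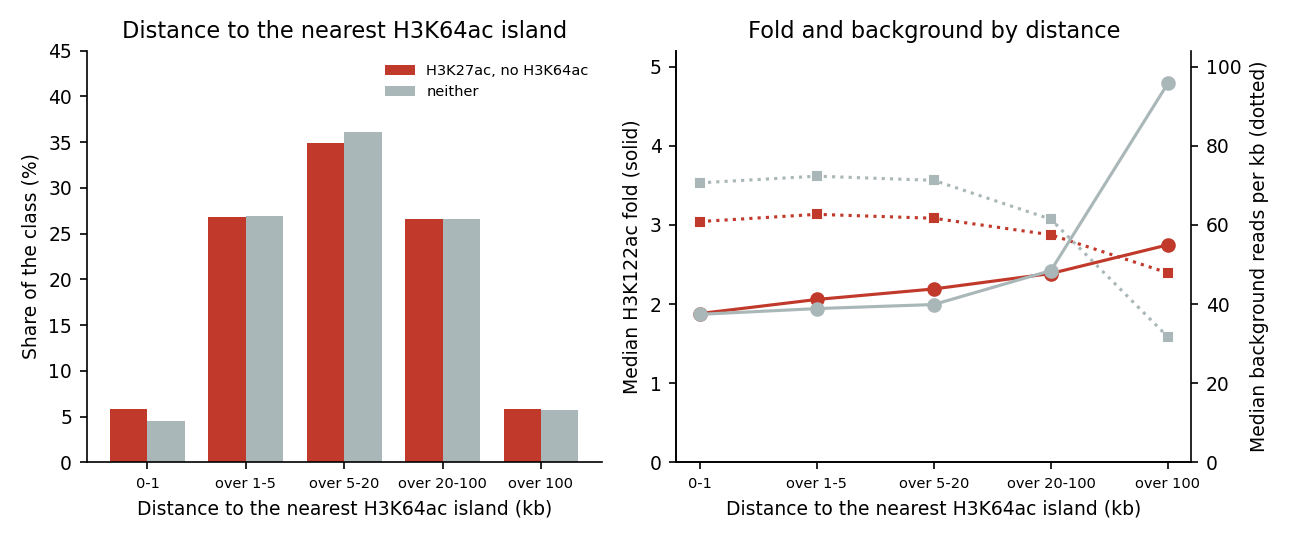
Left, the share of each class (y, percent) by distance to the nearest H3K64ac island (x, kb), for H3K122ac islands with H3K27ac and no H3K64ac (red) and with neither mark (grey). Right, the median H3K122ac fold (solid, left axis) and median background reads per kb (dotted, right axis) in the same ranges. In red, the fold rises from 1.88 to 2.75 while background falls from 60.8 to 47.9 reads per kb. In grey, the fold rises from 1.87 to 4.79, with background at 70.6 reads per kb in the nearest range and 31.7 in the farthest.

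The named islands farthest from H3K64ac were covered by the tail mark over at least 57.1% of their length. At chrX:129515401-129516400, 691200 bp from H3K64ac, 136 H3K122ac reads over 36 background reads gave a fold of 4.14 (2.85 to 6.15), and an H3K27ac island of the same ends had a fold of 1.80 (1.24 to 2.68). At chr8:16591001-16591800, 605000 bp away, the folds were 3.49 (2.51 to 4.93) and 1.78 (1.32 to 2.44). At chr16:47498601-47500000, 515000 bp away, they were 1.91 (1.40 to 2.62) and 1.65 (1.22 to 2.28). At chr10:63417001-63417600, 411400 bp away, they were 7.15 (4.49 to 11.9) and 2.79 (1.75 to 4.66). These islands were called for both marks by the rule, and their H3K122ac folds ranged from below the median of the set to well above it.

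Just inside the rule, 12 islands abutted H3K64ac or lay within 200 bp of it, at a median H3K122ac fold of 1.77 and 1700 bp in median length. Just outside, 52 islands with H3K27ac overlapped H3K64ac by 200 bp or less, at a median fold of 2.97 and 600 bp in median length. For H3K27ac, the 448 islands overlapping it by 200 bp had a median H3K122ac fold of 2.57, and the 283 without H3K64ac whose nearest H3K27ac island lay within 400 bp without overlap had 1.80. By length, 17 islands of the set were 7000 bp or longer, and 2 islands of 10000 bp or more were left out. Both were on chromosome 17, chr17:28233401-28244800 at an H3K122ac fold of 2.47 (2.26 to 2.69) and chr17:84506201-84516200 at 1.82 (1.66 to 1.99).

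The nearest other H3K122ac island was a median of 5800 bp away, and it carried all 3 marks for 4766 islands (46.3%), neither other mark for 2639 (25.6%), H3K64ac alone for 1130 (11.0%) and the same combination for 1754 (17.05%). In the whole H3K122ac list these classes made up 44.5%, 28.3%, 16.1% and 11.1%. Along the list, 7282 islands had no neighbour of the same kind directly before or after. There were 1087 runs of 2, 203 of 3, 37 of 4, 14 of 5 and 1 of 6. The median gap between neighbouring islands of the set was 127800 bp.

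The run of 6 lay at chr17:54873001-55078200, over 205200 bp with 6600 bp inside the islands. From left to right the H3K122ac folds were 1.40 (1.12 to 1.76), 2.83 (1.96 to 4.17), 3.57 (2.47 to 5.25), 2.42 (1.70 to 3.48), 2.82 (2.05 to 3.91) and 4.10 (2.86 to 5.998). Their H3K27ac folds were 1.27, 2.19, 2.44, 1.95, 1.45 and 1.99. The islands fell into a group of 4 and a group of 2, separated by a gap of 157600 bp without H3K122ac. In that gap lay an H3K64ac island with a fold of 5.74 and no H3K122ac, and 4 H3K27ac islands without H3K122ac, so islands of the 3 marks were interspersed along this stretch. A second H3K64ac island, at a fold of 2.01, lay 2200 bp beyond the last island of the run.

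**Figure D4:**
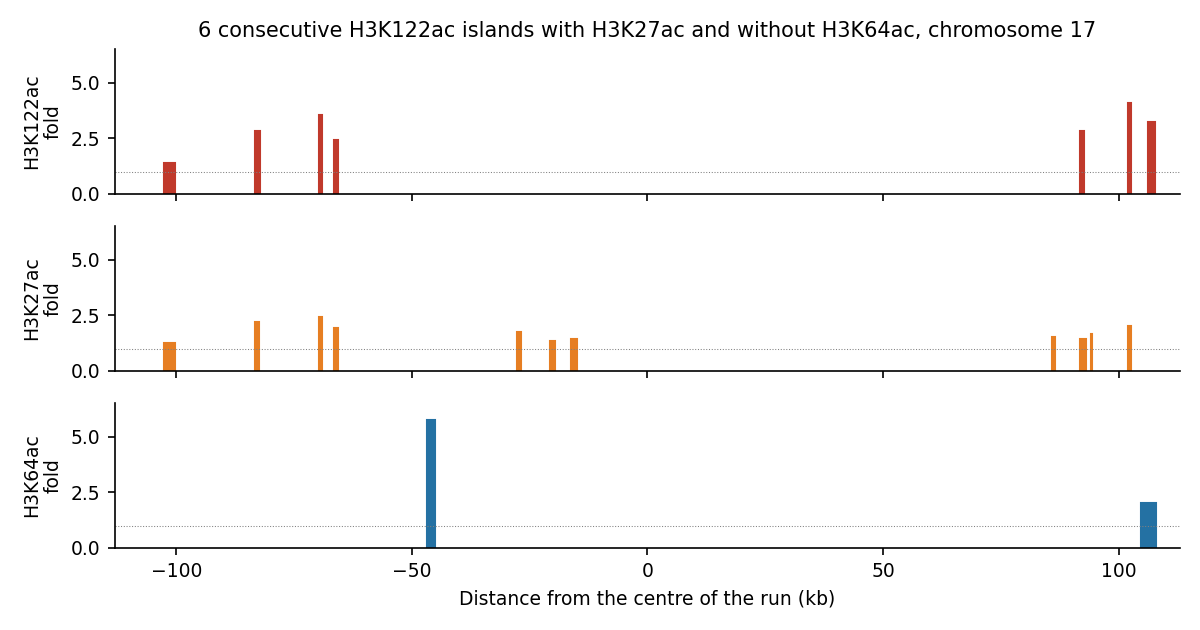
Islands of the 3 lists around the run of 6 on chromosome 17, by distance from its centre (x, kb). Bar width is island length and bar height the fold over background in that list (y), with a dotted line at a fold of 1. The 6 islands of the run have H3K122ac folds of 1.40 to 4.10, each over an H3K27ac island, and the H3K64ac islands lie apart from them. The H3K122ac island farthest right meets H3K64ac and is not part of the run.

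Of the runs of 5, those with the most H3K122ac reads on the chromosomes used for naming were chr19:15031001-15276000 and chr11:86818401-86857000. On chromosome 19 the run was spread over 245000 bp, at 65400 to 255000 bp from H3K64ac, with H3K122ac folds from 2.05 to 9.64. The highest of these rests on 10 background reads. On chromosome 11 the 5 islands lay within 38600 bp, at 7800 to 31000 bp from H3K64ac, with H3K122ac folds from 1.53 to 3.58 and H3K27ac folds from 1.24 to 1.68.

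The share of H3K122ac islands with H3K27ac and without H3K64ac differed between chromosomes. On the 19 numbered chromosomes it ranged from 8.49% (Wilson 95% interval 7.75 to 9.29%) on chromosome 7 to 14.7% (13.6 to 15.98%) on chromosome 16. On X it was 125 of 2499 islands, 5.002% (4.21 to 5.93%), and none lay on Y or the mitochondrial genome, where 5 and 2 islands were called. The intervals of chromosomes 7, 16 and X do not overlap, but neighbouring islands are not independent. The 125 islands on X had a higher median H3K122ac fold, 4.28 against 2.19 on the numbered chromosomes, and a higher median H3K27ac fold, 2.15 against 1.44. Their H3K122ac reads per kb differed less, at 133 against 119, while background was 37.0 against 60.0 reads per kb. Background moved with the folds on X in every class, and its part in the lower share there was not tested. On the numbered chromosomes, the median H3K122ac fold of the set ran from 2.07 to 2.33, and was below that of islands with all 3 marks on 19 of 19.

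**Figure D5:**
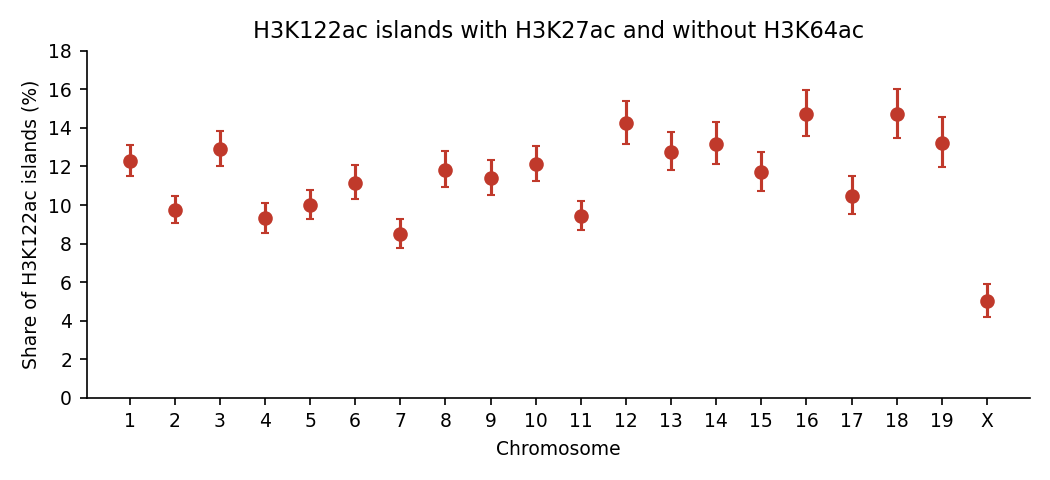
Share of mESC H3K122ac islands under 10000 bp that met H3K27ac and no H3K64ac (y, percent) on each chromosome (x). Points are shares and bars are Wilson 95% intervals, which cover counting error only. X, at 5.002%, lies below all 19 numbered chromosomes, which range from 8.49 to 14.7%.

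Few islands of the set rest on very low background: 39 (0.379%) had fewer than 10 background reads, against 1.71% of all H3K122ac islands under 10000 bp and 1327 (5.04%) of those with neither other mark. The 39 had a median fold of 9.31, and they include the highest fold of the set, 197, at the 1 island with no background read, for which the authors' ratio uses a background of 0.25 reads. That value is set by the substituted count and says little about enrichment. Without the 39, the median fold was 2.21.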

How the data were processed

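Native ChIP-seq island lists of 46c mESC were analysed, 1 per mark, each from 2 replicate libraries merged by the authors, per the file names. Bowtie 0.12.8, HOMER 4.3 and SICER 1.1 and the build mm9 are named in the submitters' processing notes, without a role for each. Windows of 200 bp, gaps of 200 bp (H3K27ac) or 600 bp (H3K122ac, H3K64ac) and a false discovery rate of 0.01 come from the names of the lists. The deposited lists hold raw read counts of the ChIP and background libraries, a p-value and q-value from the authors' caller, and a fold, the ratio of both counts divided by a scaling ratio between the libraries. Recomputed from the counts, this ratio was constant within each list. The background library is not named in the sources used here, and total depths are unknown.

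Overlaps, distances and medians were computed in Python 3.11.15 with pandas 2.3.3, numpy 2.4.6 and scipy 1.17.1, and figures drawn with matplotlib 3.10.9. The overlap code recovered 200 of 200 planted islands in simulated lists. Positions are 1-based. Medians carry order-statistic 95% intervals, shares Wilson intervals and folds exact binomial intervals. No test between classes was run, as the rule used all 3 lists. Named regions were the 4 islands ranked first by H3K122ac fold (highest and lowest), H3K27ac fold, length, distance to H3K64ac, and fold among islands with the same ends in both lists, and the 3 longest runs. The set, the lists and these rules were chosen with earlier results of these data known. Regions were not assigned to genes and no sequences were read, because the gene tables at hand were for another mouse build.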

Additional observations from a re-analysis of the deposited data

How the results depend on the processing

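The count of islands, 5 medians and the share covered to at least 50% by H3K27ac were recomputed under 9 alternatives, which gave 62 values. Of these, 37 stayed within the 95% interval of the value reported, or within 1.5 times the count, and 25 did not. Calling H3K64ac present only at a fold of 2 or more raised the count from 10289 to 20095, with a median length of 1600 bp, an H3K27ac fold of 1.40, background of 64.1 reads per kb, a distance to H3K64ac of 14000 bp and 76.5% covered to at least 50%. Calling H3K27ac present only at a fold of 2 or more left 1538 islands, with a median H3K122ac fold of 3.64, a length of 800 bp, an H3K27ac fold of 2.42, background of 38.3 reads per kb, a distance of 16800 bp and 71.1% covered. An H3K122ac q-value of at most 1e-10 left 6658 islands, with median folds of 2.70 for H3K122ac and 1.53 for H3K27ac, background of 55.0 reads per kb, a distance of 11200 bp and 78.8% covered. Coverage of at least 50% by H3K27ac gave a median H3K122ac fold of 2.24, a length of 1000 bp, an H3K27ac fold of 1.43 and background of 61.7 reads per kb in 8231 islands. Leaving out islands within 1000 bp of H3K64ac moved the median distance to 11200 bp, and joining H3K27ac islands across 600 bp moved the median H3K27ac fold to 1.47. Beyond what each threshold selects by construction, the cause was not tested. Numbered chromosomes only, at least 10 background reads, and no length limit moved none of the values beyond these limits. No paired analysis was possible because the 2 replicates of each mark were merged before islands were called, and for the same reason no replicate could be left out. The 4 islands of highest fold with at least 50 background reads were added after seeing the data.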
